A study of Homo sapiens with 4 samples.

Results

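Imprinted genes are expressed mainly from the copy inherited from 1 parent, under DNA methylation marks that differ between the parental copies. The imprinted genes examined here were 42 known human imprinted genes, 34 protein coding and 8 noncoding, which fall in 20 chromosomal loci. A 1000 bp tile was taken as a member when it overlapped the span of such a gene in GENCODE release 44 on GRCh37 (hg19), extended by 5 kb on each side, and was listed in at least 1 of the 3 differential methylation tables deposited for SKOV3 clones. This rule gave 250 of the 72455 tiles listed in any table. SKOV3, a long-established line of human ovarian cancer cells, has a mesenchymal (M) phenotype, and LY75 (DEC205) is an endocytic receptor whose loss was studied for a shift to an epithelial (E) phenotype. DNA methylation was measured by reduced representation bisulfite sequencing (RRBS), in which MspI cuts at CCGG, short fragments are sequenced after bisulfite conversion, and the share of cytosines that stay unconverted is the methylation level.

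The clones were 4, with 1 library each. shC-S carries a control shRNA and sh-LY75-S an shRNA against LY75. LY75-KO-S had LY75 inactivated by CRISPR. LY75-R-S is the LY75 shRNA-suppressed line in which LY75 was expressed again. The first and last of these have the M phenotype and the others the E phenotype. The comparison shC-S vs. sh-LY75-S is called the knockdown comparison below. The knockout comparison is LY75-R-S vs. LY75-KO-S. These share no library, while the third table, the mix, holds all 4 libraries again, so its values are given beside the others and not as a further observation. LY75-R-S descends from the knockdown cells and LY75-KO-S does not. In the knockout comparison LY75 status and the way the clone was made therefore cannot be told apart. The knockdown line also enters both comparisons, itself as an E clone and through LY75-R-S as an M clone, so they are not independent.

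Each deposited table gives a tile's difference in percent methylation, in percentage points (points), and a q-value, and lists a tile only from 25 points upward. No level per clone, no read number and no replicate was at hand, so no replicate error can be given and no test was made. The q-values compare the reads of libraries, not conditions. A tile that is not listed may have changed by less than 25 points or may have had too few reads. Positive values were taken to mean hypermethylation of the E clone. For the knockdown comparison this order matched the direction stated in the study for 10 of 10 genes. For the knockout comparison it rests on the composition of the mix given in the study. Over 4250 tiles in all tables a least squares fit gave the mix difference as 0.534 times the knockdown plus 0.435 times the knockout difference. These are weights of a fit and not an equality. A mix grouped the other way would turn every sign of the knockout comparison. In the deposit this comparison is named with LY75-KO-S first, and the knockdown comparison with shC-S first. By that naming order alone, a positive knockout value would mean higher methylation in LY75-R-S.

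Parental methylation marks are set in the germ line at control regions, and genes near them are then expressed from a single parental copy. At H19/IGF2 the control region IC1 is methylated on the paternal copy, and on the maternal copy CTCF binds there and keeps enhancers from IGF2. At KCNQ1 the control region IC2, the promoter of the antisense RNA KCNQ1OT1, is methylated on the maternal copy. After fertilisation ZFP57 binds the methylated hexamer TGCCGC and helps to keep such marks, while secondary regions such as the MEG3 promoter acquire theirs later. With 1 methylated and 1 unmethylated copy the level is 50%, so with a measured difference over 50 points neither clone had that measured level. SKOV3 has an abnormal karyotype, and the number of copies per parent was not analysed here. From general knowledge of their positions, 32 control regions were placed on the tile grid, 21 of germ line origin and 11 secondary, with 108 tiles in all.

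The letters under several of these differences are shown because CTCF and ZFP57 read them. The CTCF core was searched on both strands through IC1, where it occurred in 5 repeats. They are given on the plus strand of GRCh37, opposite to H19, with the 14 bases of the core in capitals, as read on this strand. Bases 6, 9 and 10 of the core were free in the search.
IC1 repeat at chr11:2021175-2021234: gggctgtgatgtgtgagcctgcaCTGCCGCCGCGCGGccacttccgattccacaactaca
IC1 repeat at chr11:2021987-2022046: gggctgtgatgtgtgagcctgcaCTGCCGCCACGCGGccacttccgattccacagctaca
IC1 repeat at chr11:2023420-2023479: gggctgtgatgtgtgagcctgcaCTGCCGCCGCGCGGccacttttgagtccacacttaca
IC1 repeat at chr11:2023821-2023880: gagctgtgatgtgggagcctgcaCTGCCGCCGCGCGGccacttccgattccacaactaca
IC1 repeat at chr11:2024226-2024285: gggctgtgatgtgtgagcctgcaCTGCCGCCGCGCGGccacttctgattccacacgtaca
The tile with the first repeat was listed at 70.4 points in the knockdown comparison, and those with the other repeats were not listed in any table. MspI reads can reach 36 of 53 CpGs in that first tile but only 4, 0 and 4 CpGs in the next 3 tiles. The core was present in 0.161% of all listed tiles. The repeats overlap the ZFP57 hexamer, since CTGCCGCC holds TGCCGC.

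A further 4 stretches show the ZFP57 hexamer at control regions with listed differences. Each is 120 bases of the plus strand outside annotated UTRs, taken where the tile held the most matches, with TGCCGC or its reverse complement GCGGCA in capitals.
IC2 at KCNQ1OT1, chr11:2720666-2720785: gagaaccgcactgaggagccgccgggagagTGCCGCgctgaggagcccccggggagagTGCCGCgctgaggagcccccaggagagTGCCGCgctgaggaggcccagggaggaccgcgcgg
GRB10 promoter, chr7:50849881-50850000: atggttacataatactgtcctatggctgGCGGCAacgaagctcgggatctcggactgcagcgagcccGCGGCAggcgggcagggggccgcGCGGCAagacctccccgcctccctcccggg
PLAGL1/HYMAI promoter, chr6:144329051-144329170: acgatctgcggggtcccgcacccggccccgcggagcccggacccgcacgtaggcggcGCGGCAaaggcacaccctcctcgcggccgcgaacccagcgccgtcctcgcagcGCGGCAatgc
MEG3 promoter, chr14:101292461-101292580: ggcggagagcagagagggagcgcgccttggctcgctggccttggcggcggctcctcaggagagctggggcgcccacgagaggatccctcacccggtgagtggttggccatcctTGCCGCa
The first 2 stretches hold 3 matches each, the PLAGL1/HYMAI stretch 2 and the MEG3 stretch 1. In the order shown, MspI reads can reach 24 of 77, 2 of 50, 84 of 114 and 23 of 57 CpGs of their tiles. The tile of the PLAGL1/HYMAI stretch was listed in the mix alone. The hexamer was in 19 of the 33 control region tiles listed in any table (57.6%), in 25 of 42 tiles there that reads can reach but no table lists (59.5%), and in 18.6% of all listed tiles. These control region tiles are CpG rich, with a median of 49 CpGs against 19 over all listed tiles. Among tiles of 20 to 59 CpGs the share with the hexamer was 52.2% at listed control region tiles and 26.5% over all listed tiles, and among those of 60 CpGs or more it was 70% of 10 tiles and 58.6%. The hexamer is a description of these letters and was no more frequent in the listed than in the unlisted control region tiles.

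The knockdown comparison listed 201 member tiles, of which 157 were hypermethylated in the E clone and 44 hypomethylated. The knockout comparison listed 69, of which 48 were hypermethylated and 21 hypomethylated, and the mix 76, with 60 and 16. Hypermethylated tiles were thus 78.1% (95% Wilson interval 71.9 to 83.3%) in the knockdown comparison, where 64.7% of all listed tiles had that sign. The shares were 69.6% (57.9 to 79.2%) against 54.7% in the knockout comparison and 78.9% (68.5 to 86.6%) against 65% in the mix. Such intervals cover counting error only, and adjacent tiles are not independent. The median absolute difference was 50 points in the knockdown comparison, 44.3 points in the knockout comparison and 35.6 points in the mix, beside 50, 41.9 and 36.9 points over all listed tiles. Differences over 50 points were held by 99 of the 201 tiles, 18 of the 69 and 15 of the 76, while they made up 48.1%, 30.8% and 21.2% of all listed tiles. The sizes of the differences at imprinted genes were thus near those elsewhere, while their hypermethylated share was higher in each table as signed here. With the order of the knockout comparison reversed, that share would be 30.4% against 45.3% there, and so lower than elsewhere.

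To give these counts a denominator, the tiles that hold a CpG within 50 bp of the ends of MspI fragments of 40 to 220 bp were computed from the reference. Of 384794 such tiles in the genome, 12.4% were listed in the knockdown comparison, 6.65% in the knockout comparison and 5.16% in the mix. The imprinted windows had 922 of them. The listed share there was 20.7% (18.2 to 23.5%) in the knockdown comparison, 6.94% (5.47 to 8.77%) in the knockout comparison and 7.92% (6.34 to 9.84%) in the mix. Imprinted genes therefore had a larger listed share than the genome in the knockdown comparison and a share near the genome's in the knockout comparison.

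**Figure D1:**
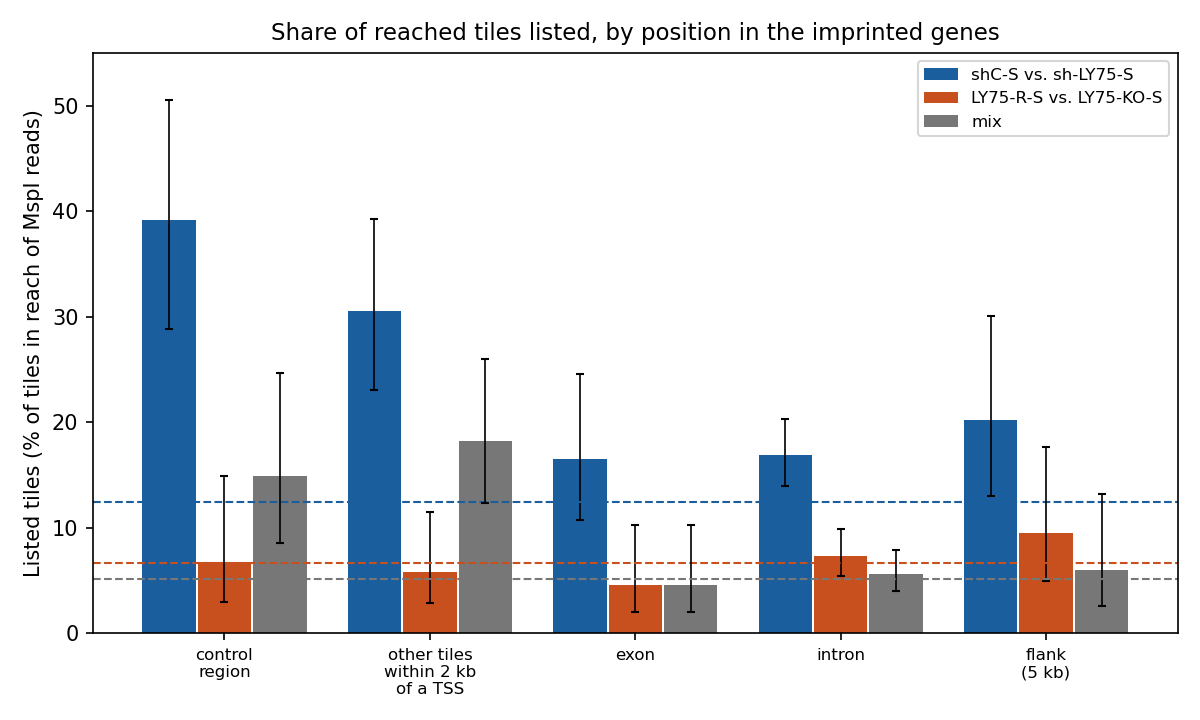
Bars give the percent of tiles in reach of MspI reads that were listed, by position in the imprinted genes and by comparison, with 95% Wilson intervals; dashed lines give the same over the genome. In the knockdown comparison the control regions reached 39.2% and the other tiles near a TSS 30.6%, against a dashed line at 12.4%.

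Tiles outside control regions were split into those within 2 kb of a TSS and those in exons, introns and 5 kb flanks. By this split the knockdown comparison had 37 tiles near a TSS, 24 hypermethylated and 13 hypomethylated, 20 in exons (18 and 2), 94 in introns (82 and 12) and 20 in flanks (17 and 3). Near the TSSs 64.9% were hypermethylated, beside 60.5% of all listed tiles near a TSS. Exon, intron and flank tiles were more often hypermethylated, but no share over all listed tiles of those kinds was computed for any table. Of these tiles KCNQ1 had 33 hypermethylated and 2 hypomethylated, and TRAPPC9 29 and 6. In the knockout comparison all 7 tiles near a TSS were hypermethylated (64.6 to 100%), beside 53.7% of all (0 of 7 beside 46.3% if the order were reversed). These 7 leave out the control region tiles, of which 2 were hypermethylated and 4 hypomethylated in that comparison. The shares over all listed tiles near a TSS, in each table, leave out no control region. The 42 intronic tiles of the knockout comparison were 29 hypermethylated and 13 hypomethylated. The mix had 13 hypermethylated and 9 hypomethylated tiles near a TSS, beside 60.6% positive over all, and its intronic tiles were hypermethylated in 29 of 30 cases.

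**Figure D2:**
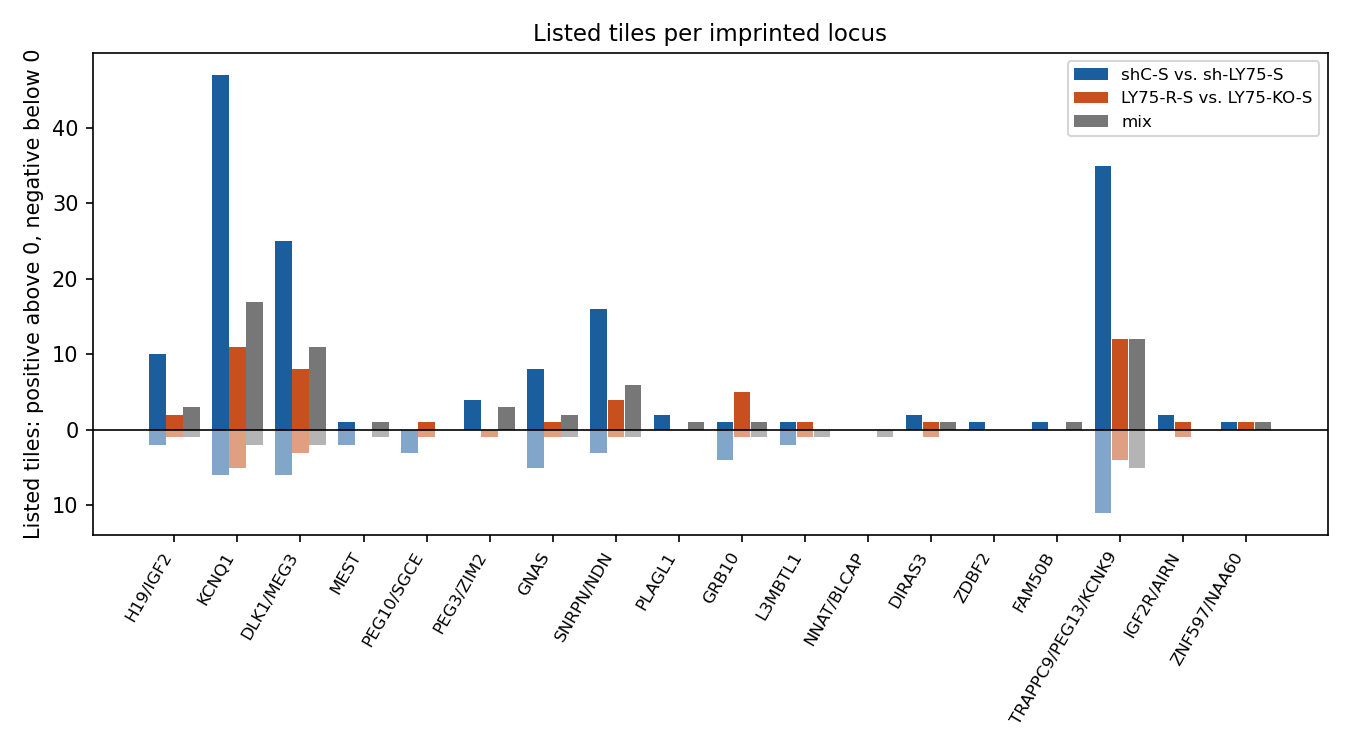
Bars above 0 count hypermethylated and bars below 0 hypomethylated listed tiles in SKOV3-E cells for each imprinted locus and comparison. KCNQ1, TRAPPC9/PEG13/KCNK9 and DLK1/MEG3 hold the most tiles, with 53, 46 and 31 in the knockdown comparison. These loci also have the most tiles in reach of MspI reads, at 190, 237 and 97, so the counts are not shares. GNAS had 13 listed tiles there, with 35 in reach.

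At the control regions both signs occurred. The knockdown comparison listed 30 of their tiles, in 18 regions, with 16 hypermethylated and 14 hypomethylated. The hypermethylated share was 53.3% (36.1 to 69.8%), an interval that holds the 60.5% of all listed tiles near a TSS. By region, 9 had hypermethylated tiles alone, 7 hypomethylated tiles alone and 2 both. Of these, 29 were among the 74 control region tiles in reach of reads, a listed share of 39.2% (28.9 to 50.6%), whereas 14.5% of all reached tiles within 2 kb of a TSS were listed. For control region tiles of 30 or more CpGs the share was 40% of 65 tiles, beside 16.5% of tiles that dense near any TSS. In the knockout comparison 6 tiles in 5 regions were listed, and 5 of these tiles were among the 74 reached, a share of 6.76% (2.92 to 14.9%), beside 5.91% near any TSS. With 30 or more CpGs it was 7.69%, beside 4.32%. The mix listed 11 tiles in 11 regions, 14.9% (8.51 to 24.7%), beside 6.13%, and 15.4% beside 7.1% for the dense tiles. All q-values at control regions were at most 2.76e-07 in the knockdown comparison, 2.26e-08 in the knockout comparison and 2.55e-12 in the mix. Of the 30 tiles in the knockdown comparison 14 differed by more than 50 points. In these tiles neither clone had a measured level of 50%, the level of 1 methylated copy of 2. Without read numbers it is unknown how near the measured levels are to the true ones.

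Both signs occurred in the knockdown comparison whatever the origin of the mark and the parent it comes from. Germline regions had 10 hypermethylated and 9 hypomethylated tiles, and secondary regions 6 and 5. Regions methylated on the maternal copy had 10 and 11, and those methylated on the paternal copy 6 and 3. In the knockout comparison all 6 listed tiles were at germline regions, 2 hypermethylated and 4 hypomethylated.

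**Figure D3:**
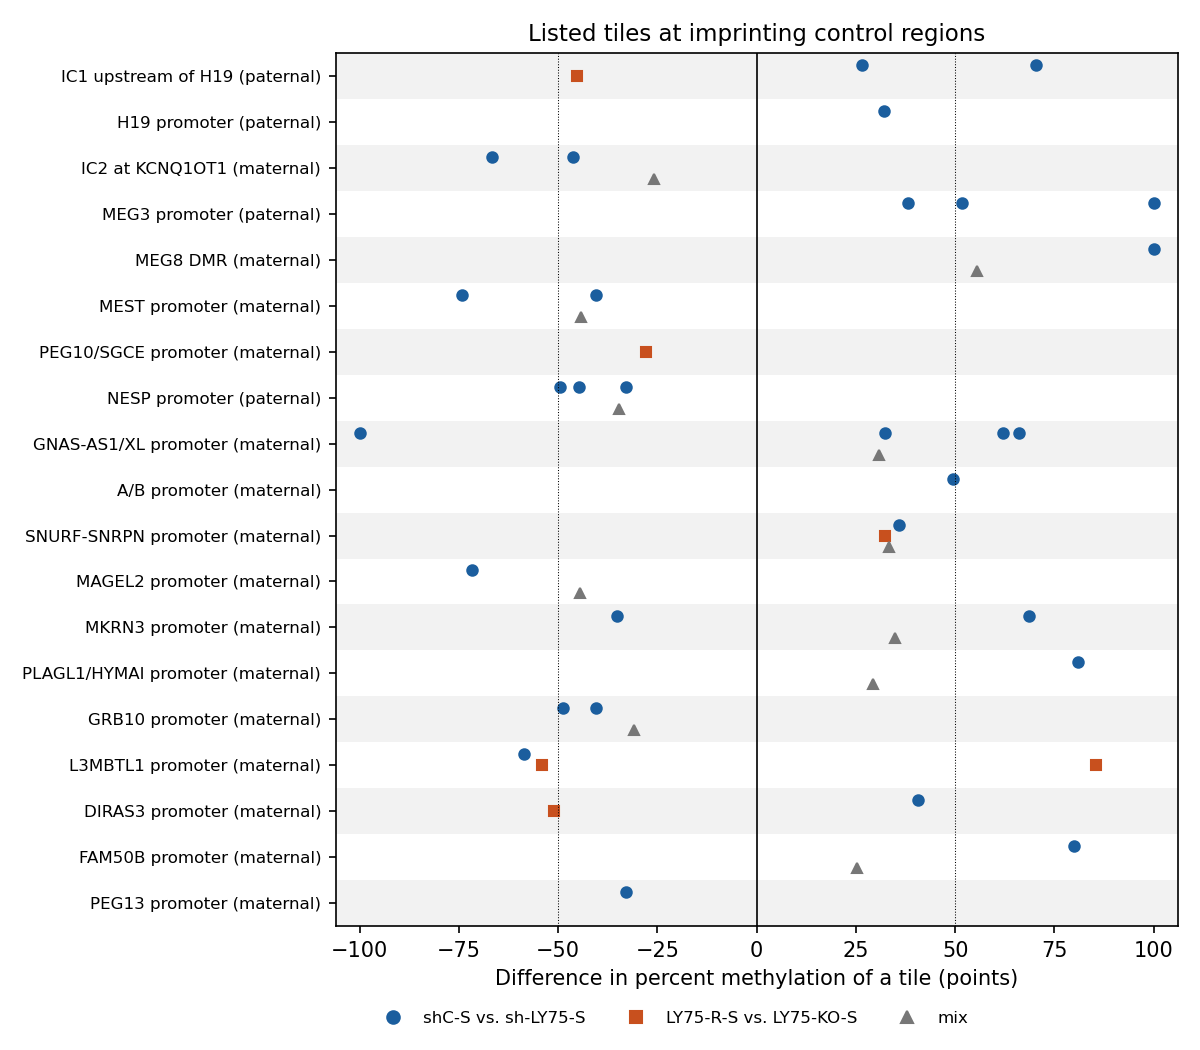
Each point is a listed tile at a control region, placed by its difference in points, with colour and shape for the comparison and the normally methylated parental copy in brackets; dotted lines mark 50 points. The SNURF-SNRPN promoter is the region with the same tile in all tables, at 35.9, 32.4 and 33.3 points.

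H19, a maternally expressed noncoding RNA, lies on chromosome 11 from 2016396 to 2025782 on the minus strand, and all 8 of its tiles in the knockdown comparison were hypermethylated. At the H19 promoter the tile from 2018001 to 2019000 differed by 32.0 points. The next listed tiles belong to IC1. The tile from 2020001 to 2021000 had 26.6 points and that from 2021001 to 2022000, with the CTCF core shown above, 70.4 points. In the knockout comparison the first of these IC1 tiles was the single listed H19 tile, with the opposite sign at -45.1 points, and the mix did not list it. The tile from 2017001, near the same promoter, had 45.8 points in the knockdown comparison and 26.1 points in the mix. The other H19 tiles of the knockdown comparison lay on both sides of the gene, between 33.9 and 66.7 points.

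IGF2, the paternally expressed growth factor next to H19, went the other way at its main promoters. In the knockdown comparison its adjacent tiles from 2161001 to 2163000, the second of them holding a TSS, differed by -47.2 and -51.5 points, and the mix listed a nearby promoter tile from 2159001 at -33.2 points. Farther upstream, the tiles from 2182001 to 2184000, near the insulin gene INS, had 46.8 and 45.9 points. The knockout comparison had none of these and listed the most upstream TSS, in the tile from 2179001, at 43.1 points. No tile of the secondary regions within IGF2 was listed in any table, with 1 and 2 of their tiles in reach.

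KCNQ1, a voltage-gated potassium channel subunit whose long introns hold the IC2 control region, had the most listed tiles of any member. Its window is long and had 171 of the 922 member tiles in reach of reads. The knockdown comparison listed 45, of which 41 were hypermethylated. IC2 stood against this: its tiles from 2720001 to 2721000 and from 2722001 to 2723000, at the start of KCNQ1OT1, differed by -46.2 and -66.6 points. The first of them was also in the mix at -25.7 points, and neither was in the knockout comparison. At the upstream KCNQ1 promoter, tiles from 2465001 and 2466001 had 64.1 and 39.1 points in the knockdown comparison and 30.6 and 26.1 points in the mix. Another promoter tile, from 2482001 to 2483000, was hypermethylated in every table, with 27.3, 40.3 and 40.4 points in the knockdown, knockout and mix comparisons. The knockdown comparison had 4 more tiles near KCNQ1 TSSs, at 55.4, 25.7, 32.0 and 33.1 points. The knockout comparison had 15 KCNQ1 tiles, 10 hypermethylated and 5 hypomethylated, with none at IC2. Away from the TSSs, its tiles in exons, introns and flanks were 35 in the knockdown comparison, from -30 to 100 points, 14 in the knockout comparison, from -50 to 52.4 points, and 10 in the mix, from 26.1 to 64.8 points.

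CDKN1C and PHLDA2, maternally expressed growth-restraining genes of the same domain, had listed tiles within 2 kb of a TSS in the knockdown comparison. The CDKN1C tile from 2905001 to 2906000, which holds 136 CpGs, differed by -29.0 points, and a tile from 2901001 in its flank by 29.7, 72.2 and 52.1 points in the 3 tables. A further flank tile, from 2911001, had 92.5 points in the knockdown comparison. Around the PHLDA2 TSS, 3 adjacent tiles from 2949001 to 2952000 had 81.1, 31.8 and 99.1 points, and the next, upstream of the gene, -77.8 points. The mix held the last 2 of these tiles, at 55.5 and -41.0 points. No PHLDA2 tile was in the knockout table.

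DLK1, a paternally expressed transmembrane regulator of differentiation, and MEG3, the maternally expressed long noncoding RNA of the same domain, differed in direction near their starts in the knockdown comparison. The 3 adjacent tiles over the DLK1 start, on chromosome 14 from 101192001 to 101195000, had -40.0, -49.4 and -47.1 points. Within DLK1, the tiles from 101199001 and 101200001 had the other sign, at 51.2 and 100 points, and the knockout comparison listed the intronic tile from 101197001 at -28.6 points. All 16 MEG3 tiles were hypermethylated, between 36.0 and 100 points, with a median of 62.2 points. At the MEG3 promoter, a secondary control region, the adjacent tiles from 101290001 to 101293000 had 38.1, 51.8 and 100 points. The last of these holds the TSS and the hexamer shown above. None of the promoter tiles was listed in the other tables. Within MEG3, a tile from 101300001 to 101301000, 386 bp from an annotated TSS, was hypermethylated throughout, at 100, 54.3 and 63.6 points in the knockdown, knockout and mix comparisons. Tiles near other MEG3 TSSs had 53.8, 64.1, 60.2, 36.0 and 60.4 points in the knockdown comparison, and 1 tile, from 101246001, 31.2 points in the knockout comparison. The germline control region between DLK1 and MEG3 had no tile in reach of MspI reads.

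Farther along this domain, the region at the start of MEG8, a maternally expressed noncoding RNA, had 100 points in the knockdown comparison and 55.6 points in the mix (tile from 101371001 to 101372000). RTL1 is a retrotransposon-derived gene expressed from the paternal copy. A tile from 101368001, 1059 bp from its TSS, had -100 points in the knockdown comparison and 78 points in the knockout comparison, with 15 CpGs of which reads reach 1. Its other tiles had 34.9 points in the knockdown comparison and 29.4 and -45.2 points in the knockout comparison. Within MEG8 and its flank, 5 tiles of the knockdown comparison lay between 31.2 and 66.3 points and 3 of the knockout comparison between 31.5 and 100 points. DIO3, a thyroid hormone deiodinase at the far end, had -63.2 points in the tile with its TSS, from 102027001 to 102028000 with 144 CpGs, and -44.2 points in the mix. Tiles upstream of DIO3 had -100 points in the knockdown (from 102022001) and 26.3 points in the knockout comparison (from 102023001). Over the whole domain the knockdown comparison had 25 hypermethylated and 6 hypomethylated tiles, and the knockout comparison 8 and 3.

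**Figure D4:**
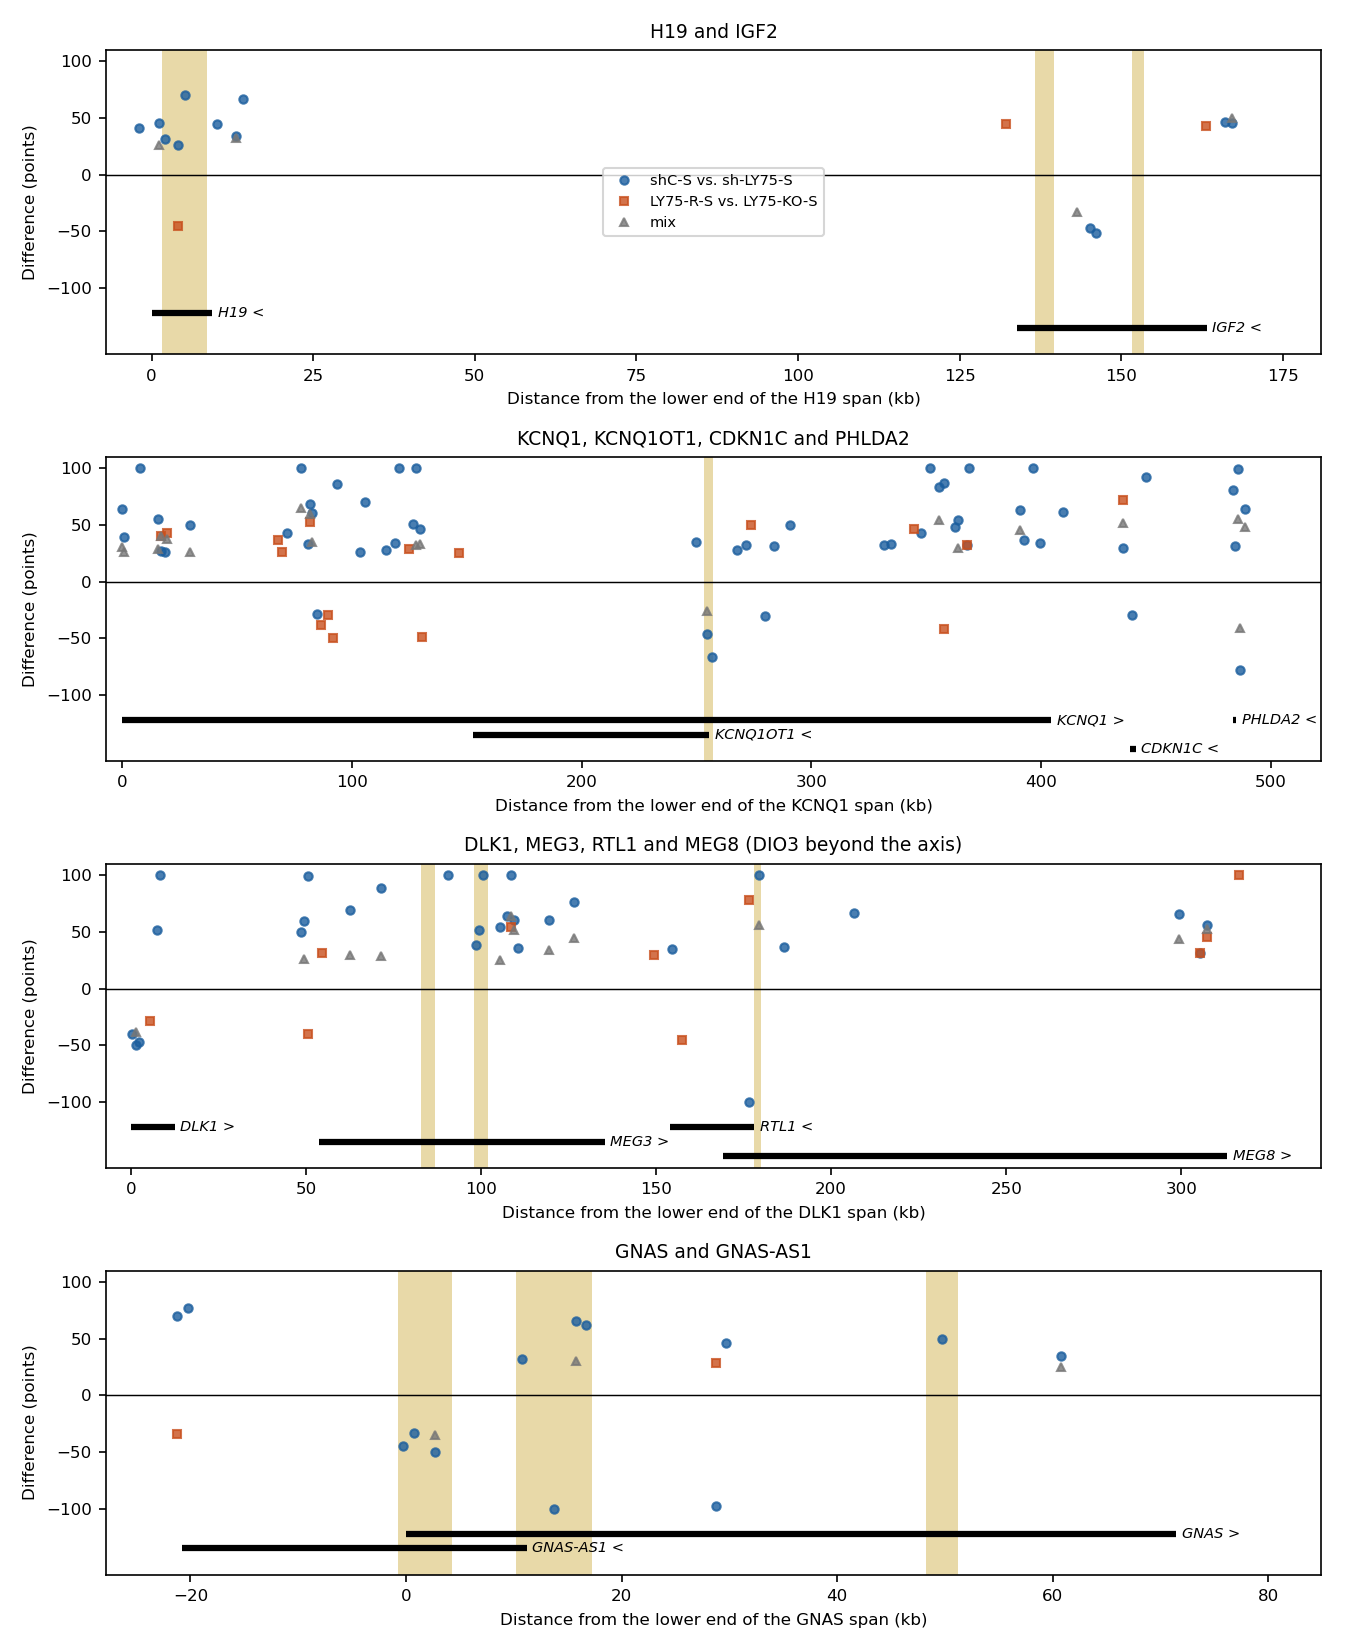
Points are listed tiles by distance from the lower end of the named gene span (kb) and by difference in points, in 4 imprinted domains; shaded bands are control regions and black bars gene spans, with > or < for the strand. In the knockdown comparison IC2 sits at -46.2 and -66.6 points between hypermethylated KCNQ1 tiles, and the DLK1 start is below 0 while the MEG3 tiles are above it.

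GNAS encodes the stimulatory G protein alpha subunit and has several promoters with different parental marks, and in the knockdown comparison they moved in different directions. The NESP promoter, methylated on the paternal copy, had 3 listed tiles on chromosome 20, from 57414001, 57415001 and 57417001, at -44.8, -32.8 and -49.6 points. The GNAS-AS1/XL promoter region, methylated on the maternal copy, had 32.3 points at the start of GNAS-AS1 (tile from 57425001), then -100, 66.0 and 62.0 points (tiles from 57428001, 57430001 and 57431001). The A/B promoter, also methylated on the maternal copy, had 49.4 points in the tile from 57464001 to 57465000 with 116 CpGs. The mix held the tiles from 57417001 and 57430001, at -34.7 and 30.8 points. Aside from the tile at -100 points, NESP was lower and the maternally marked promoters higher in sh-LY75-S than in shC-S. The knockout comparison listed none of these promoters and had 2 tiles at this locus, at 28.5 points in a GNAS intron and -34.4 points at the end of GNAS-AS1. Both had the opposite sign in the knockdown comparison, at -97.1 and 69.8 points.

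SNRPN, a paternally expressed splicing protein gene of the Prader-Willi and Angelman region, had the control region tile with the most uniform difference. This tile, on chromosome 15 from 25200001 to 25201000, holds the SNURF-SNRPN TSS and 71 CpGs. It was hypermethylated by 35.9 points in the knockdown comparison, 32.4 points in the knockout comparison and 33.3 points in the mix. Over the whole gene the knockdown comparison had 10 hypermethylated tiles and 1 hypomethylated tile. Its tiles away from TSSs ran from -52.5 to 100 points in the knockdown comparison and from -25.9 to 100 points in the knockout comparison. Near an upstream TSS, the tile from 25103001 had 100 points in the knockdown comparison and was in no other table. A tile just past the gene, from 25226001, had 65.4, 100 and 81.2 points in the 3 tables, with 11 CpGs of which 0 are in reach in the computed digest. MAGEL2 and MKRN3, paternally expressed genes whose proteins act in ubiquitination, carry secondary marks. The MAGEL2 promoter tile from 23892001 had -71.6 points in the knockdown comparison and -44.5 points in the mix, and another MAGEL2 tile, away from its TSS, had 51.2 points in the knockdown comparison. At MKRN3 the tile with the TSS, from 23810001, had -35.3 points, while the tile from 23807001 upstream of it had 68.7 points and, in the mix, 34.9 points. A further 4 MKRN3 tiles away from the TSS had 35.6 to 74.4 points in the knockdown comparison. NDN, a growth regulator of the same MAGE family as MAGEL2, and UBE3A, the Angelman syndrome ubiquitin ligase, had no listed tile, with 4 and 7 tiles in reach.

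Of the loci with a single imprinted promoter, MEST and GRB10 were hypomethylated at their control regions in the knockdown comparison. MEST, a paternally expressed hydrolase-like gene, had -74.1 and -40.5 points in the adjacent tiles from 130130001 to 130132000 on chromosome 7, and -44.2 points in the mix for the second. Its upstream promoter tile from 130126001, outside the control region, had 49.2 points and 42.8 points in the same tables. GRB10, an adaptor that restrains insulin and growth factor signalling, had -40.4 and -48.8 points in the tiles from 50849001 to 50851000, and -30.8 points in the mix for the second. In the knockout comparison the GRB10 control region was not listed, and its upstream promoter tile from 50860001 had 53.8 points. Over the whole gene the knockdown comparison had 1 hypermethylated and 4 hypomethylated tiles, and the knockout comparison 5 and 1. Its tiles away from TSSs lay between -90.5 and 50 points in the former and between -44.2 and 50 points in the latter.

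PLAGL1, a zinc finger regulator of growth, FAM50B and DIRAS3 were hypermethylated at their control regions in the knockdown comparison. The PLAGL1/HYMAI tile from 144328001 on chromosome 6 had 80.8 points, and the mix listed the next tile, from 144329001 with 114 CpGs, at 29.3 points. A tile from 144384001 near an upstream PLAGL1 TSS had 27.8 points in the knockdown comparison. FAM50B, a paternally expressed retrogene, had 80 points in the tile with its TSS from 3849001 and 25.3 points in the mix. DIRAS3, a Ras-like tumour suppressor silenced in many ovarian cancers, had 40.7 points in the knockdown comparison and -51.0 points in the knockout comparison in its promoter tile on chromosome 1 from 68516001. A further tile upstream, from 68518001 with 6 CpGs, was hypermethylated in all tables, at 100, 47.9 and 64.0 points. For DIRAS3 the direction at the promoter therefore differed between the single comparisons, and 0 of its promoter tiles were in reach in the computed digest.

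L3MBTL1 encodes a chromatin-compacting protein, and its promoter, on chromosome 20, was the control region with the most tiles in the knockout comparison. The tile from 42142001 had -58.6 points in the knockdown and -54.1 points in the knockout comparison, and the next tile, which holds a TSS, had 85.6 points in the knockout comparison alone. Near its upstream TSSs the knockdown comparison listed 34.9 points (tile from 42135001) and -83.8 points (tile from 42137001), the latter at -47.1 points in the mix. PEG10 and SGCE share a promoter region on chromosome 7, where the tile from 94287001 had -27.9 points in the knockout comparison and was in no other table. PPP1R9A, in the same locus, had no listed tile near a TSS, with -100 and -54.2 points in its gene body in the knockdown comparison and 50 points just past its end in the knockout comparison. Its tile at -100 points has 5 CpGs, of which 0 are in reach in the computed digest. SGCE, a membrane protein of muscle and brain, had -100 points in an exonic tile of 4 CpGs in the knockdown comparison.

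TRAPPC9, PEG13 and KCNK9 lie together on chromosome 8, where PEG13 is a paternally expressed noncoding RNA within a TRAPPC9 intron. The PEG13 promoter tile from 141110001 had -32.9 points in the knockdown comparison. KCNK9, a potassium channel expressed from the maternal copy in brain, had -56.7 and -49.0 points in adjacent tiles from 140715001 to 140717000, which hold TSSs and 118 and 117 CpGs. The mix had -40.9 and -50.1 points there, and -30.8 points in the neighbouring tile from 140714001. In the introns of TRAPPC9, a vesicle tethering factor, the tiles were mostly hypermethylated: with all its tiles counted, 29 were hypermethylated and 8 hypomethylated in the knockdown comparison, and 9 and 2 in the knockout comparison, with differences up to 97.7 and 100 points. The KCNK9 tiles away from TSSs ran from -100 to 96.3 points in the knockdown comparison (6 hypermethylated, 1 hypomethylated) and from -50 to 48.9 points in the knockout comparison (3 and 2). The TRAPPC9 tile nearest to its TSS, from 141466001, went the other way, at -89.1 points in the knockdown comparison and -37.2 points in the mix.

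The remaining members had few tiles. PEG3, a paternally expressed zinc finger gene, and ZIM2 share their first exons and thus the same 4 tiles, all hypermethylated in the knockdown comparison by 50 to 85.0 points, 1 of them at -32.0 points in the knockout comparison. The tile from 57335001, which holds an annotated ZIM2 TSS, had 60.5 points in the knockdown comparison and 25.1 points in the mix. The PEG3 control region had no listed tile, with 3 tiles in reach. ZDBF2 had a single exonic tile of 77.4 points in the knockdown comparison, with 4 CpGs of which 0 are in reach. IGF2R, the scavenger receptor of IGF2, had tiles of 32.9 points near its TSS and 100 points in its body in the knockdown and of -32.6 and 65.4 points in the knockout comparison, none of them in its intronic control region. BLCAP had -32.9 points in the mix, and NAA60 33.3 points in each table for an intronic tile from 3518001 on chromosome 16. NDN, UBE3A, NNAT, NAP1L5, RB1, AIRN and ZNF597 had no listed tile. NAP1L5 had 0 tiles in reach, and the others 4 to 32, so at RB1, where 4 control region tiles were in reach, no change of 25 points or more passed the deposited thresholds.

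Near the TSSs, outside control regions, the tiles were also counted by the parental copy that is expressed. In the knockdown comparison, genes expressed from the maternal copy had 17 hypermethylated and 4 hypomethylated tiles, and those expressed from the paternal copy 6 and 8, where 60.5% of all listed tiles near a TSS were hypermethylated. KCNQ1, MEG3 and PHLDA2 hold most of the former, in adjacent tiles that are not independent. In the knockout comparison the counts were 3 and 0 for either kind, and in the mix 10 and 4 for the maternal and 3 and 4 for the paternal copy. The difference between the kinds was not tested.

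The single comparisons had 25 member tiles in common, 12.4% of those of the knockdown and 36.2% of those of the knockout comparison, while over all listed tiles the shares were 16.3% and 29.5%. Of the 25, 15 had the same sign and 10 the opposite sign. The share of the same sign, 60% (40.7 to 76.6%), lay near the 52.6% of the 8345 tiles shared over the genome, which is within its interval. All tables held 13 of them, 12 with the same sign throughout. The mix pools the same libraries, so differences of opposite sign tend to cancel there. The count of 12 was therefore largely fixed in advance and is no further sign of agreement. At control regions 4 tiles were common: SNURF-SNRPN and L3MBTL1 with the same sign, and IC1 and DIRAS3 with opposite signs. If the order of the knockout comparison were reversed, these pairs would change places.

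**Figure D5:**
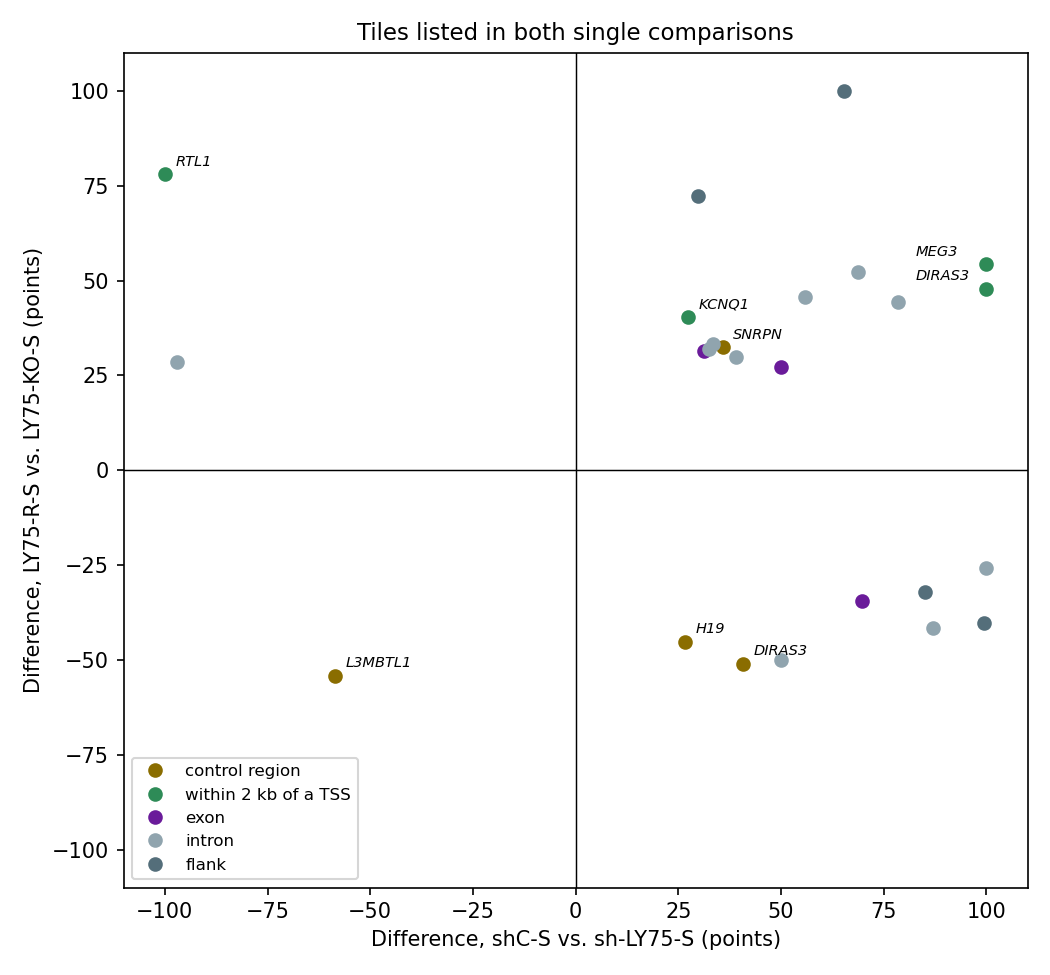
Points are the 25 tiles listed in both single comparisons, with the knockdown difference on the x axis and the knockout difference on the y axis (points) and colour for the position in the gene; control region and TSS tiles carry gene names. The 15 tiles of the same sign lie in the upper right and lower left corners, and 14 of these are positive in both.

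By gene, a listed tile within 2 kb of a TSS was present for 28 of 41 members with a reached tile there in the knockdown comparison (68.3%), 12 in the knockout comparison (29.3%) and 24 in the mix (58.5%). Over all genes the shares were 28.8%, 14.1% and 14.1%, with a median of 2 reached tiles per gene against 4 for the members, so the members also had more tiles in which a difference could be listed. A second list, of other imprinted genes with 44 reached near a TSS, had 27, 12 and 16 such genes. It is not separate from the members, since INS, MEG9, MESTIT1, SNHG14 and SNURF had listed tiles that lie in the members' windows and were counted above. By the largest tile, 9 genes of this list were in both single comparisons, 6 with the same sign and 3 with opposite signs. The latter were ANO1 (100 points in the knockdown and -93.5 points in the knockout comparison), SLC22A18 (87.0 and -35.0 points) and OSBPL5 (-100 and 50 points). Of the former, ZNF331 had -100 and -57.1 points, WT1 46.8 and 49.1 points and SLC22A3 -25.3 and -32.6 points, and the rest were MEG9, SNHG14 and SNURF.

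Genes that set or keep the marks were listed near a TSS for 8 of 15 in the knockdown comparison (53.3%, beside 28.8% of all genes). In each of the others it was 5 of 15 (33.3%, beside 14.1% of all genes). These genes had a median of 3 reached tiles near a TSS, against 2 over all genes. They too thus had more tiles in which a difference could be listed. DNMT1, the maintenance methyltransferase, and UHRF1, its partner at replicated DNA, were positive in every table. DNMT1 had 27.5, 30.5 and 28.8 points and UHRF1 36.9, 46.6 and 26.7 points in the knockdown, knockout and mix comparisons. ZFP57 had 84.1 points in the knockdown comparison and 27.3 points in the mix. DNMT3L, a cofactor of the germline methyltransferases, had 73.8 points in the knockdown and -57.1 points in the knockout comparison. Negative values were also held by NLRP7 at -100 points in the knockdown comparison, DNMT3A at -48.6 points in the knockout comparison and TRIM28 at -27.2 points in the mix. These are methylation differences, and expression was not analysed here.

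The 5 kb limit fell between a TRAPPC9 tile 4968 bp from the gene, at -34.6 points in the knockdown comparison, and an IGF2 tile 5342 bp away, at 70.2 points there and 36.2 points in the mix, which was not counted.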

How the data were processed

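RRBS libraries of 4 SKOV3 clones were used, 1 per clone. By the submitters' processing notes, the authors trimmed the reads with Trim Galore 0.4.1, aligned them with Bismark 0.16.1 and compared libraries with methylKit in 1000 bp tiles on hg19. The deposited tables hold, per tile, the difference in percent methylation as a signed score in points, a p-value and its adjusted q-value. They are the comparisons of the authors, and as the tables hold nothing else they were used as deposited values, without any new test. Depth per sample and the coverage minimum are not given in the sources used here, so the precision of each difference is unknown. Reads without molecular identifiers may be copies of 1 molecule.

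Genes, TSSs and exons came from basic transcripts of GENCODE release 44 on GRCh37. The H19 start at 2025782 is not a basic transcript and was not used as a TSS. Control regions were placed by hand from general knowledge and checked against annotated TSSs, so their edges are approximate to the kilobase. Reachable tiles came from an in silico MspI digest (fragments of 40 to 220 bp, reads of 50 bp). It reached 93.4%, 90.4% and 94.6% of the listed tiles of the knockdown, knockout and mix tables, so it is a denominator by construction, not the set the authors tested. Control region and TSS tiles were mostly given singly, and other tiles by number or range per gene. The members, lists and regions were chosen with earlier results of these data known, and the background of tiles with 30 or more CpGs was added after the values were seen. Tile arithmetic was tested on fixed inputs with known answers, and the least squares fit on simulated data. Values were computed with pandas 2.3.3, scipy 1.17.1 and numpy 2.4.6 in Python 3.11.15, and drawn with matplotlib 3.10.9. No column of single samples was left out. BSP, expression and protein experiments were not analysed here.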

Additional observations from a re-analysis of the deposited data

Results flagged for a closer look

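At 10 tiles over imprinted genes the knockdown and the knockout comparison listed differences of opposite sign. The difference between the comparisons was not tested, since each clone has 1 library, and all of these pairs would have equal signs if the order of the knockout comparison were reversed. At control regions, the H19 tile from 2020001 had 26.6 and -45.1 points, and the DIRAS3 tile from 68516001 had 40.7 and -51.0 points, the knockdown value being given first here and below. Close to the RTL1 TSS, the tile from 101368001 had -100 and 78 points. The GNAS tile from 57443001 was the other tile lower in the knockdown comparison, at -97.1 and 28.5 points. In 6 further tiles the knockdown value was the positive one. These were the KCNQ1 tile from 2823001 at 87.0 and -41.7 points, the MEG3 tile from 101242001 at 99.4 and -40.2 points, and the ZIM2 tile from 57356001 at 85.0 and -32.0 points. The GNAS-AS1 tile from 57393001 had 69.8 and -34.4 points, the SNRPN tile from 25077001 had 100 and -25.9 points, and the KCNK9 tile from 140655001 had 50 and -50 points. The SNRPN tile was the one also listed in the mix, at 40.5 points.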

How the results depend on the processing

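Of 51 alternatives, 41 left a count within 1.5 times its value, or a share or median within its 95% interval. Each count tried with a minimum of 50 points moved, as that minimum removes tiles by construction. The member tiles were then 110 in the knockdown comparison, 24 in the knockout comparison and 15 in the mix, the control region tiles 14, 3 and 1, and the tiles in both single comparisons 6. Hypermethylated shares at that minimum were 79.2% in the knockout comparison and 93.3% in the mix. With a TSS window of 5 kb the knockout comparison had 20 tiles near a TSS, control regions included, in place of 13. Leaving out the KCNQ1 locus (DLK1/MEG3 for the tiles in both single comparisons), other windows around the genes, and runs of adjacent tiles counted 1 time moved no value past these limits. No paired analysis was possible because each group has 1 library and the result comes from no test. Without levels, read numbers and replicates, neither the precision of a difference nor a smaller change can be judged.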
